A study of Mus musculus with 6 samples.

Results

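Prospermatogonia, the germ cells of the fetal mouse testis, were profiled by CUT&RUN, an assay that cuts out and sequences the DNA next to an antibody's target. Described here are the wide H3K4me3 promoters that carried no TAF4b peak. They were selected on the deposited region lists themselves: regions of H3K4me3 replicate 1 annotated as promoter-TSS (at a transcription start site), at least 1500 and under 3000 bp wide, that overlapped no TAF4b peak of replicate 1 or 2 by even 1 bp. The rule found 2359 such regions among 4276 wide promoter regions, 13454 promoter-TSS regions of any width and 64891 H3K4me3 regions in all. They were compared with the other 1917 wide promoter regions, which held a TAF4b peak.

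The series has 6 samples in 3 groups of 2 replicates each, made with antibodies to TAF4b, to H3K4me3, or with IgG, and the IgG libraries were not analysed here. All were labelled as male C57BL/6 cells of embryonic age E16.5 with a Taf4b-wildtype genotype. The parents were homozygous for an Oct4-EGFP transgene (B6;129S4-Pou5f1tm2Jae/J), and live gonadal cells were sorted on their GFP signal, so every group shares the reporter and the sort. The labels do not say whether replicates came from separate litters, or whether embryos were pooled.

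TAF4b is a gonad-enriched paralogue of TAF4, a subunit of TFIID, the complex that recognises core promoters and helps RNA polymerase II to start transcription. H3K4me3, trimethylation of lysine 4 of histone H3, marks the nucleosomes around start sites, mostly at CpG islands. It is known at transcribed genes and also at silent developmental genes, where it can lie together with the Polycomb mark H3K27me3, which was not measured here.

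Examples of both kinds are shown by the 200 bp upstream of an annotated start site (GRCm39 genome, GENCODE M39 start sites, gene strand, written 5′ to 3′). The start is that of the transcript by which the authors' list annotates the region as promoter-TSS, and a gene can have others. The first 4 lacked TAF4b and belong to developmental regulators, and the last 4 held it and belong to housekeeping genes. Each is the region of highest H3K4me3 score of its kind, lacking or holding, in its gene list, among those whose start lies within 100 bp of the start of the same gene nearest by the deposited distance and whose stretch has at most 30 bases in exons of coding genes. The lists are the 4 of either class with the most such promoters in which a region met these conditions. Capitals mark matches, on either strand, to a set of consensus sequences that is spelled out with its counts further on: the GC box, the CCAAT box and the TATA box. A match is a string of letters and no evidence of binding.
Hoxc6: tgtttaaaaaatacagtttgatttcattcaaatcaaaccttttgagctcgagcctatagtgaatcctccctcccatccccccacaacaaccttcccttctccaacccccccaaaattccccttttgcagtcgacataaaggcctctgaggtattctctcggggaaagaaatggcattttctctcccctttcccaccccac
Glis3: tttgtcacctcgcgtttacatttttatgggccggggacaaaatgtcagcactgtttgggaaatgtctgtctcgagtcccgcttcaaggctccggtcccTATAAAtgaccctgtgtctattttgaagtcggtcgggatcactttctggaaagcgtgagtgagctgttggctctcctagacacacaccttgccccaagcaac
Fgf15: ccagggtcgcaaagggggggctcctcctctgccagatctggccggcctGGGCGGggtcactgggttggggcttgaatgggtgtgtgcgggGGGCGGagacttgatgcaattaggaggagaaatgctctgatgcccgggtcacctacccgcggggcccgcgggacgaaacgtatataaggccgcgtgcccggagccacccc
Sox12: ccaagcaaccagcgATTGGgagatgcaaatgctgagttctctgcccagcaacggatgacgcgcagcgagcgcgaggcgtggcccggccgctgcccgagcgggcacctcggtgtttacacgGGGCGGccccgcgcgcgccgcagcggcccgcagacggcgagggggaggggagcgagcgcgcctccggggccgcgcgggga
Fbxo27: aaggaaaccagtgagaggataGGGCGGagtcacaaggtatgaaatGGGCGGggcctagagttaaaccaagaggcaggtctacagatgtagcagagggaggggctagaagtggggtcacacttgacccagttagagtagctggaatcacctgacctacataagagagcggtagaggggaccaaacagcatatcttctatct
Sart1: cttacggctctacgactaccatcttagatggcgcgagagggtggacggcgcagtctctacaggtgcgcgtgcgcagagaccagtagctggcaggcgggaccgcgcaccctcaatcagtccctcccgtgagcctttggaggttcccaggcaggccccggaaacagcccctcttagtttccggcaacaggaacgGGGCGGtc
Fancc: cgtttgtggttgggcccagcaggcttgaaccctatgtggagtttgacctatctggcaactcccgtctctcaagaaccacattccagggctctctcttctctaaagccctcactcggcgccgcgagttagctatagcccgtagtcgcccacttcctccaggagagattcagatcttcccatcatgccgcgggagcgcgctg
Polr1a: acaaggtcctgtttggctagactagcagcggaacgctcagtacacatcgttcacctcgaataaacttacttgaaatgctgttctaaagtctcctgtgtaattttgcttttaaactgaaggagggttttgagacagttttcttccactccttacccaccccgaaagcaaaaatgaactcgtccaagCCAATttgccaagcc
These stretches lie at chr15:102908761-102908960 (Hoxc6, + strand), chr19:28656091-28656290 (Glis3, − strand), chr7:144450068-144450267 (Fgf15, + strand), chr2:152239984-152240183 (Sox12, − strand), chr7:28393244-28393443 (Fbxo27, + strand), chr19:5438732-5438931 (Sart1, − strand), chr13:63579571-63579770 (Fancc, − strand) and chr6:71885821-71886020 (Polr1a, + strand). Among the members, the stretch of Fgf15, a fibroblast growth factor gene, holds 2 GC boxes, and that of Sox12 holds 1 GC box and 1 CCAAT box. The stretch of Glis3, a zinc finger factor related to Gli, holds 1 TATA box. The Hoxc6 stretch matches none of the sequences searched. Among the promoters that held TAF4b, that of Fbxo27, an F-box protein of ubiquitin ligases, has 2 GC boxes, and that of the splicing factor gene Sart1 has 1. The Fbxo27 promoter had a TAF4b peak only in replicate 2 (score 60.7). The stretch of Polr1a, the gene of the largest subunit of RNA polymerase I, has 1 CCAAT box, and that of Fancc, a DNA repair gene, has none. Of these 8 regions only that of Polr1a holds the start of a further coding gene, Ptcd3. Over all wide promoters, a coding gene together with a further coding start was found in 238 of 2359 members (10.1%) and 449 of 1917 comparison promoters (23.4%), a difference of −13.3 points (−15.6 to −11.1).

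Wide promoters lacked TAF4b less often than promoters in general. Of all 13454 promoter-TSS regions, 69.9% lacked a TAF4b peak, and of the wide ones 55.2% did (95% Wilson interval 53.7 to 56.7%). The share fell with width, from 91.1% of 1696 regions of exactly 500 bp to 66.1% of 3497 regions of 1000 to 1499 bp. Within the wide range it moved little, from 56.5% of the 1516 regions up to 1749 bp wide to 51.7% of the 418 regions between 2249 and 2500 bp and 58.2% of the 404 wider ones. Of the 297 promoter regions of 3000 bp or more, 60.3% lacked TAF4b. The median H3K4me3 score rose with width too, from 23.8 at 500 bp to 83.5 at 1000 to 1499 bp and 169.9 from 2500 bp to under 3000 bp. A wider region also has more room for an overlap of 1 bp. The part of either in the fall with width was not tested. The narrowest member, at Stk32a, was 1500 bp wide and scored 105.8, and just under the limit a region of 1499 bp at Gm21960 scored 61.1. The widest member, at Sox5 (a Sox-family transcription factor), was 2998 bp wide and scored 105.8, and just over the limit a region of 3008 bp at Nol4l, also without TAF4b, scored 231.

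**Figure D1:**
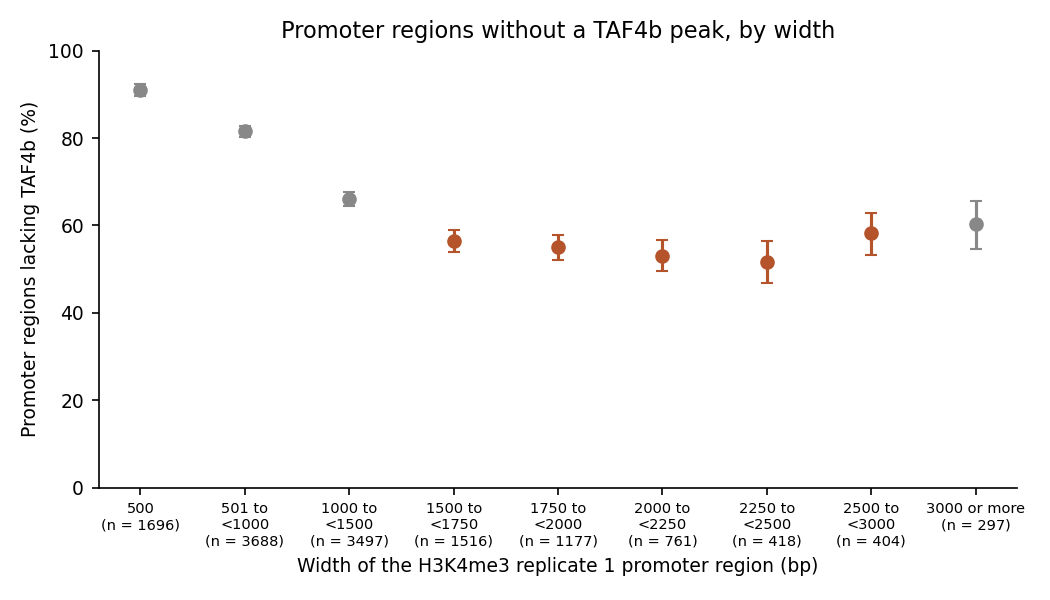
Share of H3K4me3 replicate 1 promoter-TSS regions without a TAF4b peak (vertical axis, %) in classes of region width (horizontal axis, bp), with 95% Wilson intervals and the number of regions in each class. The members' width range is drawn in orange, where the share stays between 51.7 and 58.2%, and the other widths in grey, where it reaches 91.1%.

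The division into lacking and holding rests on peak calls, and mainly on those of 1 library. Of the 1917 promoters that held TAF4b, 1615 had a peak only in TAF4b replicate 1, which lists 7861 peaks, 37 only in replicate 2, which lists 848, and 265 in both. On the TAF4b replicate 2 list alone, 92.9% of the wide promoters would lack TAF4b. The weakest TAF4b peaks inside a wide promoter scored 6.95 in replicate 1, at 10 promoters, against a median best score of 18.9 over the holding promoters. Among these 10 were Ndc80 (a kinetochore protein) and Foxo1 (a forkhead factor). The Foxo1 promoter also had a TAF4b replicate 2 peak, with a score of 40.5. A promoter with a signal just under the authors' threshold counts as lacking TAF4b, and the signal itself was not analysed here.

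How far the members lay from TAF4b peaks follows in part from the rule and is given as a description. The nearest peak lay a median of 64828 bp away (95% order-statistic interval 60637 to 69218), and over 10 kb away for 2129 members (90.3%). For the 7041 other promoter-TSS regions without TAF4b the median was 62867 bp, and 83.9% were over 10 kb away. The nearest peak lay within 1000 bp for 11 members, among them Arid1b (a chromatin remodelling subunit), whose region ended 8 bp from a peak, Rev1 (a DNA polymerase of lesion bypass) at 40 bp and Pbx3 at 896 bp. The members named 2307 genes, and 67 members (2.84%) belonged to a gene with a TAF4b peak at another of its promoters.

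The H3K4me3 score, a value of the authors whose normalization is not stated, had the same median in both groups with these peak calls. It was 123.7 in the members and in the comparison promoters, with a difference of 0 (95% interval −3.35 to 2.12), and the middle 50% of each ran from 101.4 to 150.6. With only the higher-scoring 50% of TAF4b replicate 1 peaks the difference was −4.5 (−6.62 to −0.26), and without TAF4b replicate 1 it was −9 (−13.6 to −2.82), intervals that do not include 0. The median width was 1862 bp in the members and 1873 bp in the comparison promoters, a difference of −11 bp (−44 to 12). The strongest member, at Sfi1 (a centrosome protein), scored 2216.5 in H3K4me3 replicate 1 and 2188.1 in replicate 2, far above the next, Eva1c, at 339.9 and 161.7. The strongest comparison promoter stood apart in the same way, on the unplaced scaffold JH584304.1, with 2215 in replicate 1 and 2395.2 in replicate 2. Whether repeated sequence contributes to these 2 values was not tested. Among the next members by replicate 1 score, Gm49697, Inppl1 and Slc43a1 were found again in replicate 2, while 4921522P10Rik, Plac9, Pacsin3 and Apba2 were not.

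Members were recovered less often than their comparison promoters in H3K4me3 replicate 2, a list that the selection did not use. That list is much shorter, with 1730 regions of a median width of 500 bp, and it holds only 2 promoter regions in the wide range. Of all wide promoters 12.6% overlapped one of its regions. For the members the count was 248 (10.5%, 9.34 to 11.8%) and for the promoters with TAF4b it was 289 of 1917 (15.1%, 13.5 to 16.7%), a difference of −4.56 percentage points (Newcombe interval −6.61 to −2.55). The wide promoters were divided by replicate 1 score into 4 classes of about equal size. In the lowest class the shares were 6.67% (4.95 to 8.92%) for members and 5.95% (4.18 to 8.42%) for comparison promoters. In the highest, from a score of 152 up, they were 16.6% (13.8 to 19.8%) and 24.4% (20.7 to 28.4%). Where a region was found again, its median replicate 2 score was 116.2 in both groups. Leaving out the 25% of regions with the lowest CpG ratio, described further on, reduced the difference to −2.40 points, with an interval of −4.81 to 0.02 that includes 0. Each list is 1 library, so no test over samples was possible here or below, and all intervals cover counting error only.

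**Figure D2:**
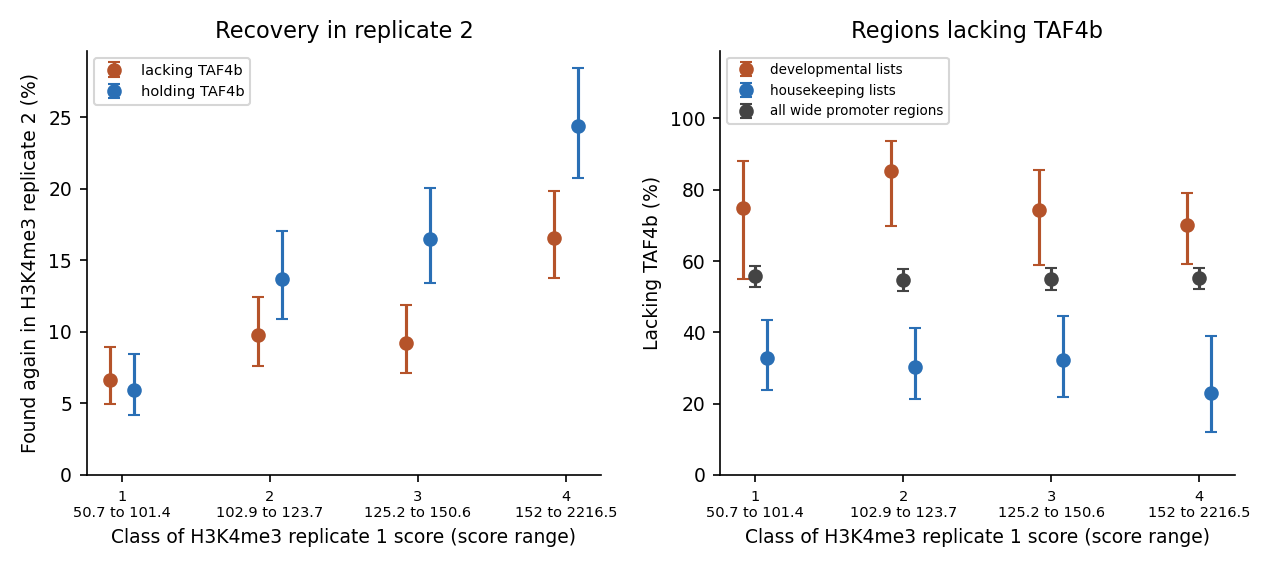
Left, share of wide promoter regions found again in H3K4me3 replicate 2 (vertical axis, %), and right, share lacking a TAF4b peak (vertical axis, %), in 4 classes of H3K4me3 replicate 1 score (horizontal axis, score range below each). Points are shares with 95% Wilson intervals. The recovered share in the highest class is 16.6% without and 24.4% with TAF4b, and the developmental lists lie above the housekeeping lists in every class.

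With the peaks of both TAF4b lists, promoters of developmental regulators mostly lacked TAF4b and those of housekeeping genes mostly held it. Of 174 wide promoters in the 9 developmental lists, 130 lacked TAF4b (74.7%, 67.8 to 80.6%), and of 261 in the 11 housekeeping lists 80 did (30.7%, 25.4 to 36.5%), beside 55.2% of all wide promoters. Seen from the groups, developmental regulators made up 130 of the 2359 members (5.51%) and 44 of the 1917 comparison promoters, a difference of 3.22 points (2.07 to 4.37). Without TAF4b replicate 1 it was 2.24 points, with an interval of −0.11 to 3.51 that includes 0. Housekeeping genes made up 3.39% and 9.44%, a difference of −6.05 points (−7.59 to −4.58). On the short TAF4b replicate 2 list alone both classes mostly lacked TAF4b, at 168 of the 174 developmental promoters (96.6%) and 225 of the 261 housekeeping ones (86.2%), and the housekeeping difference was −6.26 points (−10.5 to −2.98). The order was the same in each class of H3K4me3 score. In the highest class 54 of 77 developmental promoters (70.1%) and 8 of 35 housekeeping promoters (22.9%) lacked TAF4b, and in the lowest 18 of 24 (75%) and 28 of 85 (32.9%) did. Between 1500 and 1999 bp, 71.8% of the developmental and 36.8% of the housekeeping promoters lacked TAF4b, and from 2000 bp up 76.7% and 14.1% did.

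**Figure D3:**
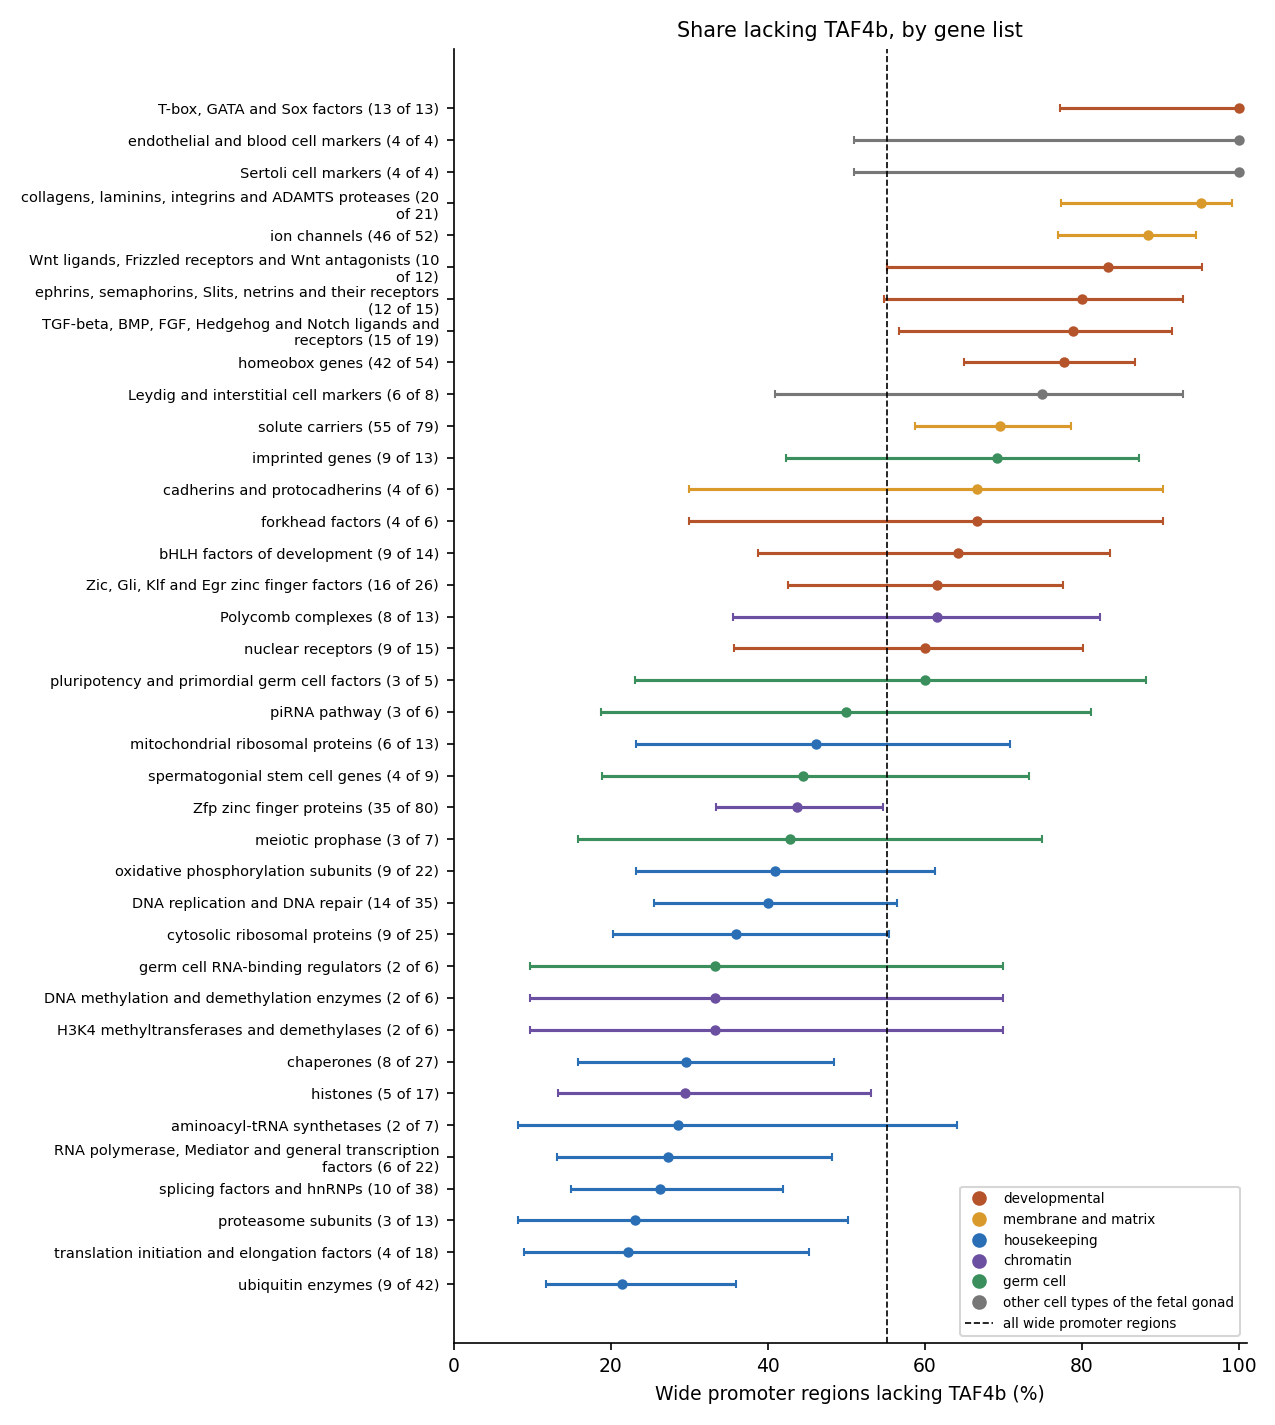
Share of wide promoter regions lacking a TAF4b peak (horizontal axis, %) for each gene list with at least 4 wide promoter regions (vertical axis), with 95% Wilson intervals. Counts stand beside the list names, colours give the class of list, and the dashed line is the 55.2% of all wide promoter regions. All 13 T-box, GATA and Sox promoters lacked TAF4b, and 9 of 42 promoters of ubiquitin enzymes did.

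Homeobox genes encode transcription factors that give cells their position along the body or their type. Of their 54 wide promoters 42 lacked TAF4b (77.8%, 65.1 to 86.8%). The strongest was Hoxc6 (chr15:102906642-102909527), with a replicate 1 score of 259.4, followed by Lhx9 (chr1:138774600-138777142), a factor of early gonad formation, with 240. Neither was found again in replicate 2. Pax6, a regulator of eye development, scored 223.6 in replicate 1 and had no replicate 2 region. Irx1 scored 217.6 in replicate 1 and 181.9 in replicate 2, so it was marked in both libraries. Of the Hox genes themselves, 11 wide promoters in all 4 clusters lacked TAF4b and 3 held it. The holding ones were Hoxb13 (TAF4b replicate 1 score 11.4), Hoxc5 (10.9) and one promoter of Hoxa7 (15.4), all below the median of 18.9. Regions carry the name of the transcript that the authors assigned, and the Hoxc5 region also holds the start of Hoxc10. The member at Hoxc9 had its nearest TAF4b peak 8967 bp away.

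No promoter of the T-box, GATA and Sox list held TAF4b: all 13 lacked it (interval 77.2 to 100%). These families direct the fate of many embryonic tissues. Sox12, a widely expressed Sox factor, scored 243 in replicate 1, Tbx18, a factor of the urogenital mesenchyme, 232.5, Gata4, a factor of the somatic gonad, 199.7, and Gata3, known from T cells, 196.8. None of the 13 was found again in replicate 2. The other factor lists were mixed. Lacking promoters numbered 9 of 14 for the bHLH factors, 16 of 26 for the Zic, Gli, Klf and Egr zinc finger factors, 9 of 15 for nuclear receptors and 4 of 6 for forkhead factors, and each of these 4 intervals includes 55.2%. Among these members were Gli2, an effector of Hedgehog signalling (205.7), Id3, an inhibitor of bHLH factors (183.3, and 121.3 in replicate 2), Pparg, the receptor that drives fat cell formation (178.9), and Twist1, a mesenchymal factor (116.3). Those that held TAF4b included Tal1, a blood factor (196.8, TAF4b 11.9), Klf5 (162.5, TAF4b 34.2) and Esrra (184.8, TAF4b 30.8).

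Among signalling genes, 10 of 12 promoters of Wnt ligands, receptors and antagonists lacked TAF4b (83.3%, 55.2 to 95.3%), 15 of 19 of the TGF-beta, BMP, FGF, Hedgehog and Notch genes (78.9%, 56.7 to 91.5%), and 12 of 15 of the ephrins, semaphorins and other guidance genes (80%, 54.8 to 93.0%). Beside the 55.2% of all wide promoters, the last interval includes that share and the first begins at it. In the Wnt list and the TGF-beta to Notch list, the ligands and secreted antagonists with a wide promoter were all members, among them Wnt5a (199.7), Wnt7b (164) and Wnt3 (132.7), the Wnt antagonists Frzb (117.8) and Sfrp2 (116.3), the Notch ligand Dll1 (223.6), the growth factor Fgf15 (211.7) and the BMP antagonist Chrd (164). Those holding TAF4b in the same pair of lists were receptors or an intracellular component: Notch1 (298.1, TAF4b 7.94), Notch4 (171.4, TAF4b 12.4), Tgfbr1 (186.3, TAF4b 39.7), Acvr2b (164, TAF4b 17.9), Fzd4 (210.2, TAF4b 24.3) and Axin1 (181.9, TAF4b 17.4). The receptors Tgfbr2 and Acvr1c were members, so receptors fell on both sides. In the guidance list the holding promoters were those of the ligand Efnb1 (164, TAF4b 11.9) and of the receptors Ephb6 (166.9, TAF4b 7.94) and Plxnb1 (172.9, TAF4b 8.44). This split was seen after the values were known and has few genes. Of the 130 developmental members, 9 were found again in replicate 2 (6.92%, 3.68 to 12.6%), against 9 of the 44 developmental promoters with TAF4b (20.5%, 11.2 to 34.5%). The 9 members were Irx1, Thrb, Unc5c, Id3, Sim1, Sfrp2, Pax2, Hoxd13 and Wnt2b, with replicate 2 scores from 96 to 181.9.

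Genes for membrane proteins and the extracellular matrix lacked TAF4b about as often as the developmental regulators, at 125 of 158 promoters (79.1%, 72.1 to 84.7%). Ion channels, which carry electrical signals mostly in nerve and muscle, stood at 46 of 52 (88.5%, 77.0 to 94.6%). The calcium channel gene Cacna1e scored 243 in replicate 1 and was not found again. The potassium channel gene Kcna2 scored 232.5 and 212.2 in the H3K4me3 replicates, and Kcnq5 scored 183.3 and 212.2. Collagens, laminins, integrins and ADAMTS proteases stood at 20 of 21, with Col25a1 the exception. In this list Col27a1 scored 247.4 in replicate 1 and 146.5 in replicate 2, and Col4a1, a basement membrane collagen, 174.4 and 136.4. Solute carriers, a large family of membrane transporters, stood at 55 of 79 (69.6%, 58.8 to 78.7%). Of these 125 membrane and matrix members 20 were found again in replicate 2 (16%, 10.6 to 23.4%), a larger share than for the developmental members, with intervals that overlap. Of the 33 membrane and matrix promoters with TAF4b 4 were found again (12.1%, 4.82 to 27.3%), so in this class the members' share was not the lower one, again with intervals that overlap.

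Some promoters of the housekeeping lists were wide and lacked TAF4b all the same. These lists group genes by family or function, and whether each gene is active in all tissues was not tested. The 80 members included 9 of 25 cytosolic ribosomal protein promoters, 9 of 22 of oxidative phosphorylation subunits, 14 of 35 of DNA replication and repair genes, 10 of 38 of splicing factors, 9 of 42 of ubiquitin enzymes and 3 of 13 of proteasome subunits. The intervals of the first 3 lists include the 55.2% of all wide promoters (20.2 to 55.5%, 23.3 to 61.3% and 25.6 to 56.4%), and those of the other 3 lie below it. Their strongest was Psme2, a proteasome activator subunit (chr14:55827838-55830153), with 240 in replicate 1 and no replicate 2 region. Mrpl41, a mitochondrial ribosomal protein, scored 222.1 and 161.7, and Uqcrh, a subunit of respiratory complex III, 172.9 and 106.1. Rpl36 scored 184.8 and was not found again. Genes of the transcription machinery itself were on both sides: the TFIID subunit gene Taf6 (114.8) and the TBP-like factor gene Tbpl1 (123.7) lacked TAF4b, and Tbp was among the 16 of 22 in that list that held it. Reads from ribosomal protein and histone genes can be shared with near-identical copies, so their scores are less certain. The median H3K4me3 score was 114.8 in the housekeeping members and 116.3 in the housekeeping promoters with TAF4b, and 140.1 and 155 in the developmental ones.

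Chromatin genes were nearer the background, at 52 of 122 (42.6%, 34.2 to 51.5%), with an interval below the 55.2% of all wide promoters. Of the Polycomb complex genes, which maintain repression of developmental genes, 8 of 13 lacked TAF4b (61.5%, 35.5 to 82.3%, an interval that includes 55.2%), among them Phf19 (205.7), Pcgf2 (166.9), Cbx7 (146.1) and Cbx2 (137.1), whereas the methyltransferase gene Ezh2, Jarid2, Cbx8, Pcgf1 and Pcgf5 held it. Of the histone genes 5 of 17 lacked it (29.4%, 13.3 to 53.1%) and of the Zfp zinc finger genes 35 of 80 (43.8%, 33.4 to 54.7%). Both intervals lie below 55.2%.

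Genes of the germ cell lists, which include imprinted genes, were few among the wide promoters and fell on both sides. Of their 43 promoters 23 lacked TAF4b (53.5%, 38.9 to 67.5%), close to the 55.2% of all. The imprinted genes, with 9 of 13 lacking it, raised this share. The other lists ran from 33.3% (germ cell RNA-binding regulators) to 60% (pluripotency and primordial germ cell factors). In the piRNA pathway, which silences transposons in the male germ line, Tdrd5 (134.2), Pnldc1 (116.3) and Tdrd1 (80.5) were members, and Mybl1 (146.1, TAF4b 16.4), Tdrd7 (105.8, TAF4b 17.9) and Ddx4 (80.5, TAF4b 20.8) held TAF4b. Among genes of spermatogonial stem cells, Gfra1 (126.7), Cdh1 (134.2) and Etv4 (92.4) were members, and Etv5 (110.3, TAF4b 39.7), Ret (110.3, TAF4b 12.9), Foxo1 (111.8, TAF4b 6.95) and Thy1 (96.9, TAF4b 7.94) held it. These TAF4b scores are of replicate 1, and Foxo1 also had a TAF4b replicate 2 peak, at 40.5. Gfra1 and Ret encode the receptor pair for GDNF, the growth factor of these cells, and so differ in the call. Of the meiotic genes Top6bl, Brme1 and Smc1b were members and Syce1, Syce2, Tex11 and Prdm9 were not. Tfap2c, a primordial germ cell factor, was a member at 181.9. Of 13 wide promoters of imprinted genes 9 were members, among them Igf2 (177.4), Rasgrf1 (172.9) and Meg3 (76.0). In the germ cell lists 1 member was found again in replicate 2, the imprinted gene Trappc9, at 126.3.

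The members also included regulators and products of other cell types of the fetal gonad, at 14 of 16 wide promoters (87.5%, 64.0 to 96.5%) beside 55.2% of all. The 3 lists are small, and each list's own interval includes 55.2%. All 4 Sertoli cell markers with a wide promoter lacked TAF4b, Gata4 (199.7), Inhbb (156.5), Clu (140.1) and Sox9 (129.7), as did 6 of 8 Leydig and interstitial markers, such as Myh11 (247.4) and Col1a1 (140.1), and all 4 endothelial and blood markers, such as Kdr (147.6) and Esam (156.5). Of these 14 members only Col1a2 had a region in replicate 2, with 106.1. Several genes that define these cell types had no promoter-TSS region in H3K4me3 replicate 1, namely Amh of Sertoli cells, Cyp17a1, Star and Hsd3b1 of Leydig cells, and Pecam1, Cdh5, Ptprc, Hba-a1 and Hbb-bs of endothelium and blood. Others had narrower ones without TAF4b, namely Dhh (938 bp, score 101.4) and Wt1 (758 bp, 80.5) of Sertoli cells and Insl3 (500 bp, 26.8) of Leydig cells. Of the germ cell markers, Ddx4 (1593 bp, score 80.5), Dazl (1005 bp, 55.2) and Mael (634 bp, 28.3) had a promoter-TSS region that held TAF4b. Dppa3 (948 bp, 43.2) had a region without TAF4b, and Pou5f1, Dnd1, Nanos2, Nanos3 and Kit had no promoter-TSS region. The Taf4b gene itself had 1 region, of 500 bp, with a score of 28.3 and no TAF4b peak. In sorted bulk cells, a mark in a few cells and a weak mark in all of them cannot be told apart, and the part of other cell types in the members was not tested.

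Members and comparison promoters differed in their CpG content. The observed to expected CpG ratio, the number of CpG dinucleotides over the number that the region's C and G content would give, had a median of 0.61 in the members (95% interval 0.60 to 0.62) and 0.70 in the comparison promoters (0.69 to 0.70), a difference of −0.09 (−0.10 to −0.08). A ratio under 0.4 was found in 257 members (10.9%) and in 29 comparison promoters (1.51%). The share lacking TAF4b fell from 78.1% in the class of lowest ratio through 59.1% and 48.9% to 34.5% in the highest, again with 4 classes of equal size. The developmental promoters did not follow this course: 34 of 42, 40 of 54, 33 of 47 and 23 of 31 lacked TAF4b from the lowest to the highest class, or 81.0, 74.1, 70.2 and 74.2%. Among housekeeping promoters the shares were 52.6, 34.5, 37.3 and 18.8%, on 19 promoters in the lowest class. Coding members of the lowest ratio included Trpm1, an ion channel gene, at 0.18 and Ptges, a prostaglandin synthase gene, at 0.21, and those of the highest included Chn1 at 1.02 and the splicing factor gene Srsf6 at 0.96. The GC content of the region was slightly higher in the members, with medians of 57.3% and 56.2% (difference 1.10 points, 0.80 to 1.50). Without TAF4b replicate 1 the difference was 0.27 points, with an interval of −0.33 to 1.15 that includes 0. In the 500 bp around the start site it was lower, with 63.4% and 64.2% (difference −0.80, −1.25 to −0.08), so its direction depends on the window, and around the nearest start by the deposited distance it was −0.80 too (−1.37 to −0.23). The CpG ratio difference was −0.11 in the first of these windows and −0.10 in the other.

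**Figure D4:**
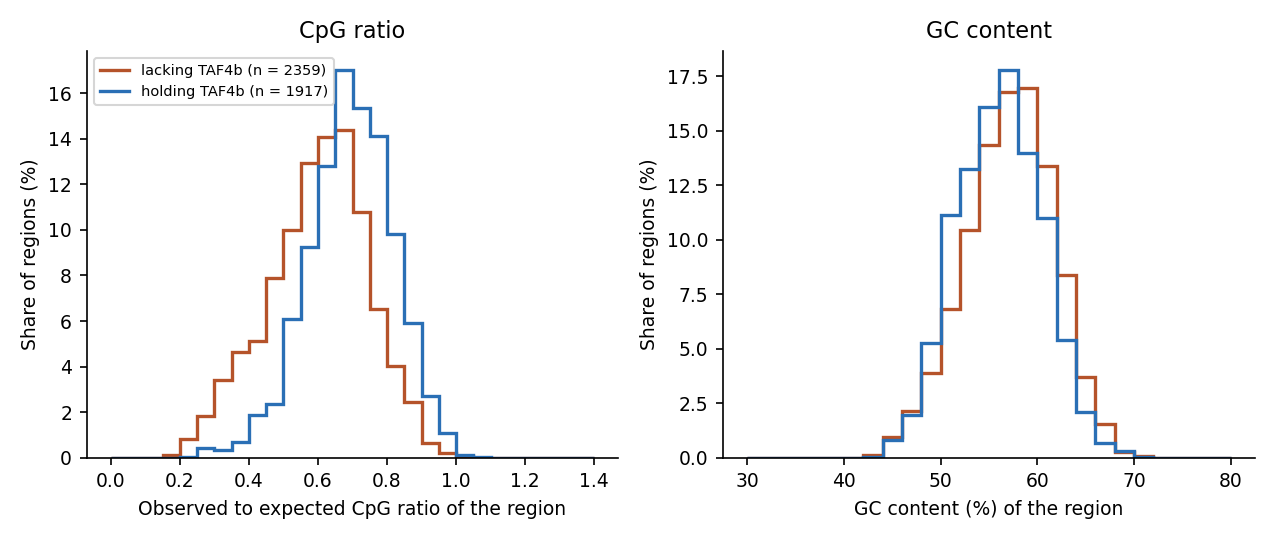
Distribution of the observed to expected CpG ratio (left, horizontal axis, a ratio without unit) and of GC content (right, horizontal axis, %) over the whole region, as the share of regions in each bin (vertical axis, %), for 2359 regions lacking and 1917 holding TAF4b. The members have a longer tail of low CpG ratios, with 10.9% of them under 0.4 against 1.51% of the comparison promoters, while the GC distributions lie close together.

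Genes with a wide promoter of each kind allowed the comparison within a gene. There were 19, and in 12 of them the promoter lacking TAF4b had the lower CpG ratio (63.2%, 41.0 to 80.9%, an interval that includes 50%). At Stag1, a cohesin subunit gene, the member had a ratio of 0.35 and a score of 141.6, and the promoter with TAF4b 0.95 and 166.9. At Rarg, a retinoic acid receptor gene, the member (chr15:102164927-102167328) had 0.41 and 147.6, and the other promoter (chr15:102153840-102156426, TAF4b score 11.9) 0.67 and 225.1. Prdm1, the gene of a transcriptional repressor needed by primordial germ cells, went the other way, with 0.69 and 155 at the member and 0.59 and 202.7 at the promoter with TAF4b. The H3K4me3 score was lower at the member in 11 of the 19 genes, and so was the width in 11 (57.9%, 36.3 to 76.9%, for each).

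Members less often held start sites on both strands. Annotated starts of coding or lncRNA genes on both strands lay in 1019 members (43.2%) and in 1198 comparison promoters (62.5%), a difference of −19.3 points (−22.2 to −16.3). For coding genes on both strands the counts were 208 (8.82%) and 417 (21.8%). Of the 625 wide promoters with coding starts on both strands 33.3% lacked TAF4b (29.7 to 37.1%), and of the other 3651 it was 58.9% (57.3 to 60.5%). Among housekeeping promoters 22 of 85 with coding starts on both strands (25.9%) and 58 of 176 others (33.0%) lacked TAF4b, a difference of −7.07 points (−18.0 to 5.04). Among developmental promoters the counts were 4 of 7 (57.1%) and 126 of 167 (75.4%), a difference of −18.3 points (−50.9 to 9.63). Both intervals include 0.

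The genes at the members also differed in kind. Protein-coding genes were named by 1961 members (83.1%) and 1730 comparison promoters (90.2%), and lncRNA genes by 289 (12.3%) and 131 (6.83%). Processed pseudogenes, reverse-transcribed gene copies, were named by 26 members and by 0 of 1917 comparison promoters, which allows a share of up to 0.156% (3 counts). The median coding gene was of similar length in both, 29501 bp and 28539.5 bp (difference 961.5, −1542 to 4087), but 19.7% of the members' coding genes and 13.4% of the others were at least 100 kb long. The members' coding genes had a median of 14 annotated transcripts and the others 19. The members lay on every autosome and X, with 25 (1.06%) on X against 10 (0.52%) of the comparison promoters, a difference of 0.54 points with an interval of −0.02 to 1.09 that includes 0.

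Consensus sequences of common promoter-binding factors were searched on both strands in the 200 bp upstream of the start site, for the 2290 members and 1879 comparison promoters with the start site inside the region. The start was that of the annotating transcript, within 100 bp of the start nearest by the deposited distance in 62.4% of these members and 56.5% of these comparison promoters, and 65.0% and 74.2% of the windows touched an exon of a coding gene. Most sequences were found less often in the members. The CCAAT box (CCAAT), bound by NF-Y, was in 21.7% of the members and 34.8% of the comparison promoters (difference −13.0 points, −15.7 to −10.3), beside 30.3% of 11024 H3K4me3 promoters of any width and 31.2% of 21757 coding gene starts. The GC box (GGGCGG), bound by Sp and Klf factors, was in 52.8% and 59.8% (45.9% and 33.7% in the same backgrounds). That difference of −7.02 points (−10.0 to −4.00) was −3.99 (−7.00 to −0.97) in the nearest 100 bp. The ETS site (CCGGAAG) was in 8.17% and 14.2% (9.99% and 6.37%). The cyclic AMP response element (TGACGTCA) was in 1.05% and 3.46% (1.91% and 1.50%), the YY1 site (AAGATGGC) in 1.35% and 2.66% (1.71% and 1.14%), the GFY core (ACTACAAT) in 0.26% and 1.01% (0.66% and 0.63%), and the CACGTG E-box in 5.98% and 8.36% (6.60% and 5.22%). In the nearest 100 bp the CACGTG difference was −1.09 points, with an interval of −2.37 to 0.14 that includes 0. For the NRF1 site (GCATGCGC) the shares were 3.14% and 4.20% (3.13% and 2.42%), with a difference whose interval, −2.25 to 0.08, includes 0. The CAGCTG E-box was found more often in the members, in 10.7% of the members and 8.78% of the comparison promoters (interval of the difference 0.14 to 3.75 points), beside 10.7% and 9.73%. The homeodomain core (TAATTA) was in 1.48% and 0.90% (1.71% and 3.78%), and the TATA box (TATAAA) in 3.67% and 3.41% (4.63% and 10.5%), with intervals of the difference that include 0. Upstream of the nearest start by the deposited distance (2323 and 1899 promoters) every one of the 11 differences kept its direction, and the interval of the TAATTA difference, 0.19 to 1.41 points, lay above 0. In the 802 and 485 promoters without a coding exon in the window, the CCAAT box (−14.9 points, −20.2 to −9.63), GC box (−7.95, −13.5 to −2.33) and GFY core (−0.99, −2.43 to −0.05) differences kept intervals below 0. There the intervals of the other 8 include 0, with the ETS site at −1.78 points, the cyclic AMP response element at −1.31 and the CAGCTG E-box at 1.52, and the YY1 site (0.67) and the CACGTG E-box (0.18) turned direction, as the TATA box did at −0.08. Each motif was searched for separately, so matches could overlap and a promoter counted once for each motif.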

How the data were processed

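CUT&RUN peak (TAF4b) and region (H3K4me3) lists of 4 libraries were used, each made from 1 library without pooling. Per the submitters' processing notes the tools included bcl2fastq 2.20, Trim Galore 0.5.0, FastQC 0.11.5, Bowtie2 2.3.0, SAMtools 1.9 and HOMER 4.10, with the GRCm39 build. Per the file headers, H3K4me3 regions were annotated against GRCm39 and Ensembl 103. The peak caller's threshold is not given in the sources used here. The deposited peak score is the authors' value and was used within a list to rank or divide regions and to compare group medians. Scores of different lists are given side by side without a comparison, since their normalization is not stated. Read depth is unknown, so no interval for it is given.

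Genes were named through the deposited transcript identifiers in GENCODE M39 (4243 of 4276 wide regions, 99.2%). The deposited distance to the start site equalled the computed one for 61.6% and was within 100 bp for 82.3%. Overlaps of at least 1 bp, CpG ratios, GC content and motif matches were computed with Python 3.11.15, pandas 2.3.3, SciPy 1.17.1 and pysam 0.24.0 and tested on simulated data. Shares have Wilson, differences Newcombe and medians order-statistic 95% intervals, which treat regions as independent and cover counting error only. No test over samples was possible. The members and the 38 gene lists were chosen with earlier results of these data known. Genes named are the 10 members of highest score in either H3K4me3 replicate, up to 6 top members a list, all germ cell and other gonadal markers with a wide promoter, the 5 strongest comparison promoters and those at the width limits. Others (Hox genes, genes with both kinds of promoter, extremes of CpG ratio, developmental promoters with TAF4b, further list members, defining markers at any width) were added after their values were seen. Alternatives covered the overlap rule, each TAF4b list left out, H3K4me3 replicate 1 left out (for the share lacking TAF4b), TAF4b score, width, H3K4me3 score, promoter class, 1 region a gene, sex chromosomes and sequence windows. Restriction to protein-coding genes, the nearest start by the deposited distance, windows without coding exons and leaving out the 25% of lowest CpG ratio were chosen after seeing the data. The IgG libraries were not analysed here. Some genes that the rule names are not reported here.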

Additional observations from a re-analysis of the deposited data

How the results depend on the processing

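Of 109 recomputed values 86 stayed within the counting interval of the reported value, 21 moved outside it and 2 reversed. The share lacking TAF4b (55.2%) was 69.7% with only the higher-scoring 50% of TAF4b replicate 1 peaks, 60.8% for any wide region within 1000 bp of a start site, 53.1% for protein-coding genes and 47.5% without the 25% of lowest CpG ratio. With 1 library left out it ranged from 50% (without H3K4me3 replicate 1, where only 2 regions qualify) to 92.9% (without TAF4b replicate 1). The difference in recovery in H3K4me3 replicate 2 was −7.51 points among the higher-scoring 50% of wide promoters and −2.40 without the 25% of lowest CpG ratio. The CpG ratio difference was −0.0757 with the higher-scoring TAF4b peaks, −0.0771 for protein-coding genes and −0.107 in 500 bp around the start site (−0.0975 around the nearest start by the deposited distance), and −0.0846 to −0.0653 with 1 TAF4b list left out. The GC content difference was 0.73 points from 2000 bp up, reversed to −0.80 in 500 bp around either start site, and was 0.27 to 1.11 with 1 TAF4b list left out, with an interval that includes 0 (−0.33 to 1.15) without replicate 1. The difference in H3K4me3 score was −4.5 with the higher-scoring TAF4b peaks, 3.0 from 2000 bp up, and −9.0 to 0 with 1 TAF4b list left out. The developmental difference was 1.71 points under 2000 bp and 5.94 points from 2000 bp up, and 2.24 (interval −0.11 to 3.51) without TAF4b replicate 1. The difference in start sites on both strands was −16.2 points without the 25% of lowest CpG ratio. The housekeeping and protein-coding differences stayed within their intervals in each setting run. Of 11 consensus sequences, the GC box difference moved to −3.99 points in 100 bp, where the CACGTG E-box difference (−1.09) had an interval that includes 0. In windows without a coding exon the ETS (−1.78) and cyclic AMP response element (−1.31) differences moved, and YY1 (0.67) and CACGTG (0.18) reversed, each with an interval that includes 0. The causes were not tested. No result comes from a test over samples, so none was paired by sample. The only paired comparison was that within genes with a wide promoter of each kind. Read depth is unknown and a missing peak is not a measured 0.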
